A study of Mus musculus with 6 samples.

Results

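The Argonaute genes Ago1, Ago2, Ago3 and Ago4 and the GW182 genes Tnrc6a, Tnrc6b and Tnrc6c were followed in T cells with and without an intact Dicer gene. The members are the 27 probe sets, of 45101 on the array, whose single gene symbol in the platform annotation is one of these 7 names or an older one (Eif2c1 to Eif2c4). A probe set is a group of short probes that together read 1 transcript region, and 24 of the 27 passed a filter that asked for a log2 intensity above 4 on at least 3 of the 6 arrays. RNA came from CD4+YFP+ lymph node T cells purified on a flow sorter, with 3 arrays from Dicerlox/lox mice (KO) and 3 from Dicerwt/lox mice (Het). Mice of both groups carried FoxP3-GFP-hCre, in which Foxp3, a gene that defines regulatory T cells, drives Cre, and the ROSA26R-YFP reporter, which turns on for good where Cre has acted. The sorted cells are therefore cells that have expressed Foxp3 at some time, and Het cells carry 1 Dicer copy that Cre can delete. The labels give no age, and they do not say whether arrays A, B and C of a group are separate animals, so each p-value here reflects array-to-array spread that may be purely technical.

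A mature microRNA acts only after an Argonaute protein has taken it up as a guide. The Argonaute finds messenger RNAs that pair with the guide and binds a GW182 protein of the Tnrc6 family, which has many glycine and tryptophan repeats. GW182 in turn recruits the CCR4-NOT and PAN2-PAN3 deadenylases, which shorten the poly(A) tail, after which the cap is removed and the messenger is degraded. Dicer makes the guides that Argonautes carry, and mouse Argonaute proteins that lack a guide are known to be less stable, a property of the protein that RNA arrays do not read.

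Several facts of the arrays touch these results. The 3 arrays of a group limit the precision, and Foxp3 itself read 5453, 9417 and 5420 in KO A, B and C, against 9960, 8945 and 9769 in Het. All 6 CD4 T cell markers were measured, with a summed intensity of 103886 to 117537 in KO and 119734 to 128258 in Het. All 5 regulatory T cell markers were measured too, at 70490 to 76249 in KO and 60365 to 67252 in Het. Each sum adds the brightest probe set of every listed gene named on the array, including genes under the filter. Of 7 B cell markers 5 were measured (sums 1932 to 5080 in KO, 1080 to 2530 in Het), with Pax5 under the filter. Both CD8 genes (636 to 4415 in KO, 651 to 2257 in Het) and 2 of 5 NK markers (130 to 1663 in KO, 114 to 608 in Het, Ncr1 under the filter) were also measured. In each of these 3 lists, and in the myeloid and proliferation lists that follow, the B array was the highest of its group. Of 7 myeloid markers 5 were measured, with sums of 570 to 2612 in KO and 429 to 676 in Het, and Cd14 and Itgam under the filter. Of 4 erythroid markers 0 were measured. The 11 measured proliferation genes summed to 93783 to 128702 in KO and 37637 to 73548 in Het, so the groups did not overlap. In bulk RNA, fewer cells of a type and less RNA per cell cannot be told apart. The part of these differences in the results below was not tested.

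Ago2 was higher in KO cells, and it was the 1 gene of the 7 with a probe set past the test. Ago2 encodes the mouse Argonaute best known for cutting perfectly paired target RNAs, besides silencing them through GW182. On probe set 1455294_at it read 3545, 4267 and 3681 in KO A, B and C, against 1821, 1893 and 2068 in Het A, B and C. Every KO array lay above every Het array, by a wide gap compared with the spread inside each group. The means were 3831 ± 384 in KO and 1927 ± 127 in Het (SD, n = 3 each), a 1.98-fold difference with a 95% interval of 1.66 to 2.38 (limma, adjusted p = 0.0253). Folds here are 2 raised to the log2 difference, KO minus Het. Adjustment was over all 29507 probe sets tested, of which 1.78% passed an adjusted p of 0.05 (1.11% higher and 0.668% lower in KO). Among the members 1 of 24 passed, and it ranked 131 by p over all probe sets. The call rests on all 6 arrays. Leaving out any single array gave adjusted p between 0.0566 and 0.104 at log2 differences of 0.91 to 1.04 (limma). Those fits had 0 to 176 calls over all probe sets, against 525 with all arrays. Leaving out both B arrays gave a log2 difference of 0.90 with adjusted p = 0.146 (limma).

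The other Ago2 probe sets gave smaller differences. The brightest, 1455389_s_at, read 11874, 13110 and 12766 in KO A, B and C, against 8493, 8655 and 9497 in Het A, B and C, 1.42-fold (95% interval 1.22 to 1.64; limma, adjusted p = 0.0568). Probe set 1435636_at, designed from the same source sequence, read 3971, 4481 and 4069 in KO and 2702, 2449 and 2940 in Het, 1.55-fold (interval 1.3 to 1.85; limma, adjusted p = 0.0520). On both the groups did not overlap, yet neither passed. Both did with an intensity trend and robust estimation, with array weights and with a pseudocount of 16, and 1435636_at also did under a stricter filter. The KO minus Het difference of 1455294_at exceeded that of 1455389_s_at by 0.49 on the log2 scale, and the per-array ratio of the 2 probe sets separated the groups completely. An exact two-sided permutation test gave p = 0.10 for it, the smallest value that 3 against 3 arrays allow (adjusted p = 0.236 over the 52 probe set pairs of 1 gene compared). Of those 52 pairs, 22 separated the groups completely. When the log2 values of the 4 Ago2 probe sets were averaged before fitting, an alternative added after the data were seen, Ago2 differed by a log2 of 0.67 (interval 0.48 to 0.86; limma, adjusted p = 0.0181, where 3.80% of 13280 genes passed).

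The dimmest Ago2 probe set followed another array order than the other 3. Probe set 1426366_at read 999, 541 and 917 in KO A, B and C, against 535, 808 and 370 in Het A, B and C. KO B lay among the Het arrays and Het B near the other KO arrays, so the groups overlapped (log2 0.54 ± 0.36, SE; limma, adjusted p = 0.486). Its Pearson correlation over the 6 arrays was 0.28 to 0.39 with the other Ago2 probe sets, which correlated at 0.98 and 0.99 with the brightest one. It was closer to 2 Tnrc6b probe sets, 1426545_at (r = 0.94) and 1460024_at (r = 0.84). These correlations are descriptions over 6 arrays that share their RNA and normalization, and 0.796% of all probe sets had r above 0.9 with 1426366_at. The signal ratio of the 3' to the 5' control probe sets of beta-actin, a sign of RNA integrity, was 1.41, 2.15 and 1.5 in KO A, B and C, against 1.70, 1.5 and 1.93 in Het A, B and C. The 3 arrays with the lowest ratios (KO A, KO C and Het B) are the 3 with the highest 1426366_at intensity. The same ratio for Gapdh did not match fully: it was lowest in KO A, KO C and Het A (1.24, 1.31 and 1.33), with Het B close at 1.37. Both controls had their highest ratios in KO B and Het C, at 1.59 and 1.49 for Gapdh. The part of RNA integrity in that pattern was not tested.

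**Figure D1:**
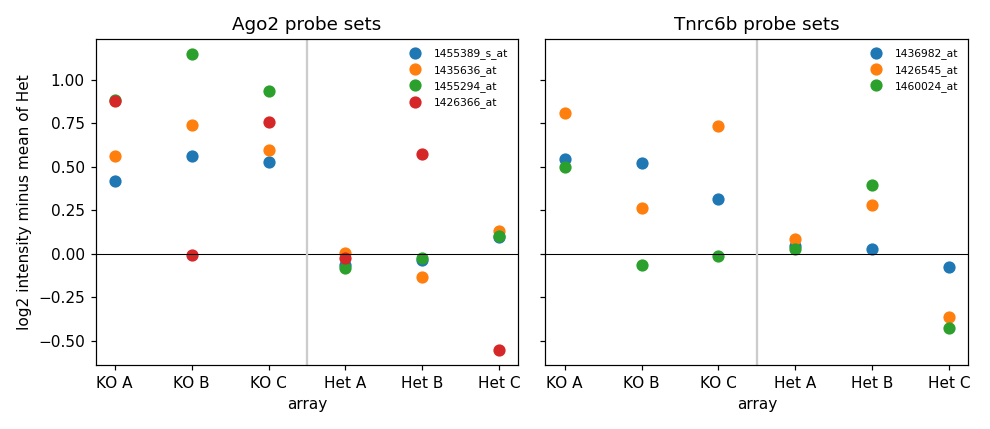
Log2 intensity of each Ago2 (left) and Tnrc6b (right) probe set on each array, minus the mean of the 3 Het arrays for that probe set. On 3 Ago2 probe sets and on Tnrc6b 1436982_at all KO points lie above all Het points, while Ago2 1426366_at is low in KO B and high in Het B.

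Ago1, Ago3 and Ago4 had no probe set past the test. In the RefSeq gene table these 3 genes are neighbours on 1 chromosome, with no other protein-coding gene between them, in the order Ago3, Ago1, Ago4, while Ago2 lies elsewhere. Ago1, which silences through GW182, has 1 probe set, 1434331_at, at 1703, 1917 and 2020 in KO A, B and C, against 1911, 1856 and 2169 in Het A, B and C. The groups overlapped, and the 0.95-fold difference had an interval of 0.79 to 1.14 (limma, adjusted p = 0.760), which does not reach the Ago2 value of 1.98. The log2 ratio of the brightest Ago2 probe set to Ago1 was 2.75 ± 0.08 in KO and 2.17 ± 0.05 in Het (SD, n = 3 each), and the 2 groups did not overlap. The exact two-sided permutation p was 0.10, again the smallest possible, and 0.60 after adjustment over 6 gene pairs that were chosen after their values were seen. The change in that ratio, a log2 of 0.58, compares the groups and not the amounts of the 2 RNAs.

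Ago3 and Ago4, of which Ago3 keeps the catalytic residues of Ago2, gave dim and mixed readings. The brightest Ago3 probe set, 1435904_at, read 226, 245 and 225 in KO A, B and C, against 224, 160 and 150 in Het A, B and C. Its groups did not overlap, but Het A lay within 1 unit of KO C (1.32-fold, interval 0.99 to 1.77; limma, adjusted p = 0.274). The other 3 tested Ago3 probe sets pointed lower in KO: 1441063_at at a log2 of -0.30 (limma, adjusted p = 0.402), 1441089_at at -0.04 and 1442009_at at -0.11, all with overlapping groups. The mean of the 4 gave a log2 of -0.01, so the sign of Ago3 depends on the probe set. The remaining one, 1458476_at, read 11.4 to 11.8 in KO and 11.7 to 12.5 in Het, under the filter. Ago4 probe set 1453289_at read 39.4, 32.4 and 42.8 in KO and 33.6, 22.2 and 32.9 in Het, with overlapping groups (1.31-fold, interval 0.92 to 1.85; limma, adjusted p = 0.379). The other Ago4 probe set, 1429779_at, designed from the same source sequence, read 6.70 to 6.97 in KO and 6.59 to 7.54 in Het and was not tested.

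**Figure D2:**
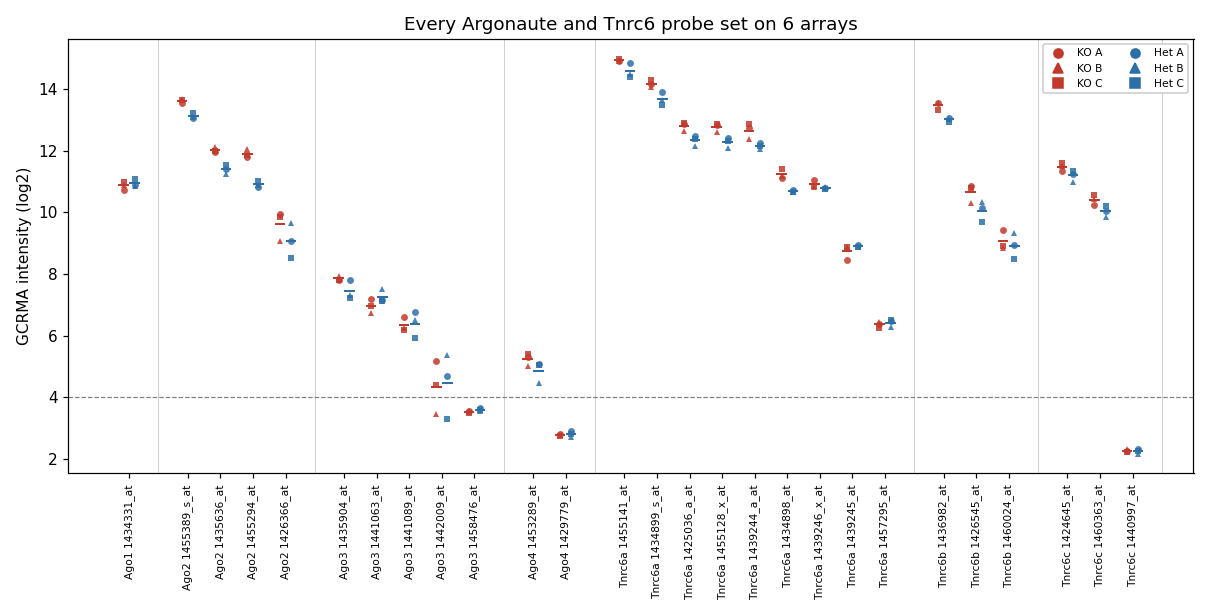
GCRMA intensity on a log2 axis for all 27 probe sets, KO arrays left (red) and Het arrays right (blue) of each position, with bars at group means and a dashed line at the filter value of 4. Ago2, Tnrc6a and Tnrc6b are read by bright probe sets with KO above Het, while 3 probe sets lie under the line on every array. Heights of different probe sets cannot be compared as amounts of RNA.

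Tnrc6a read higher on all KO arrays with 7 of its 9 probe sets, but none passed the test (limma). Over all probe sets 11.3% lay above in that way. An unadjusted p under 0.05 was reached by 6 of the 9, all higher in KO, against 9.24% of all probe sets. Tnrc6a encodes the GW182 protein after which the family is called. Its brightest probe set, 1455141_at, read 31001, 30886 and 32482 in KO A, B and C, against 29556, 22902 and 21255 in Het A, B and C. All KO arrays were above all Het arrays, with Het A close to them (1.29-fold, interval 1.02 to 1.64; limma, adjusted p = 0.234). Probe set 1434898_at, from the same source sequence, showed the clearest gap at 2235, 2304 and 2702 in KO, against 1709, 1619 and 1607 in Het (1.46-fold, interval 1.23 to 1.74; limma, adjusted p = 0.0622). It passed with array weights alone (adjusted p = 0.0477). Probe set 1434899_s_at, the third from that sequence, differed 1.40-fold (limma, adjusted p = 0.140).

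The 9 Tnrc6a probe sets did not read alike. For 6 of them the difference was a log2 of 0.37 to 0.55, each with an unadjusted p under 0.05, and for the other 3 it was -0.16 to 0.12. Probe sets 1425036_a_at and 1455128_x_at gave log2 0.46 and 0.50, with adjusted p = 0.124 and 0.106 (limma). Probe sets 1439244_a_at, 1439246_x_at and 1439245_at share a source sequence, but differed by log2 0.50, 0.12 and -0.16, with adjusted p = 0.155, 0.544 and 0.595 (limma). The last read 352, 474 and 472 in KO A, B and C, against 496, 472 and 468 in Het A, B and C, with KO A alone outside the range of the others. The dimmest, 1457295_at, read 76.8 to 88.1 in KO and 77.6 to 90.4 in Het. The suffixes a, s and x mark probe sets whose probes match several transcripts or similar sequences, so these readings are not separate measurements of 1 transcript.

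Tnrc6b encodes another GW182 protein, and 0 of its 3 probe sets passed (limma, 2 at an unadjusted p under 0.05). Its brightest probe set, 1436982_at, read 12080, 11902 and 10297 in KO A, B and C, against 8563, 8452 and 7866 in Het A, B and C. The groups did not overlap (1.38-fold, interval 1.17 to 1.62; limma, adjusted p = 0.0803). Probe set 1426545_at read 1853, 1271 and 1758 in KO and 1122, 1283 and 822 in Het, where KO B lay below Het B (1.52-fold, interval 1.03 to 2.23; limma, adjusted p = 0.230). Probe set 1460024_at read 688, 465 and 483 in KO and 496, 640 and 362 in Het, with overlapping groups and a log2 difference of 0.14 (limma, adjusted p = 0.814).

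The brightest probe sets of Ago2, Ago3, Tnrc6a and Tnrc6b separated the groups, while those of Ago1, Ago4 and Tnrc6c did not. Every KO array lay above every Het array in the former, as on 11.3% of all probe sets tested, with Het A close to KO C for Ago3. Upstream sequence is shown for Tnrc6b, Tnrc6a and Ago1, picked with these values known. The 250 bases before an annotated start of each are printed 5' to 3' on the gene's strand, from RefSeq on GRCm38.p6, with CCAAT boxes on either strand (CCAAT or its complement ATTGG) in capitals.
Tnrc6b, chr15:80711063-80711312, plus strand: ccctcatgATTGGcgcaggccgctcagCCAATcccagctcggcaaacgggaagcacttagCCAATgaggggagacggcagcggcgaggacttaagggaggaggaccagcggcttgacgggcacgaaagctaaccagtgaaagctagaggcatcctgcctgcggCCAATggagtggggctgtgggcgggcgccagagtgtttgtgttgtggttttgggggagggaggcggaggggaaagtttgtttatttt
Tnrc6a, chr7:123123635-123123884, plus strand: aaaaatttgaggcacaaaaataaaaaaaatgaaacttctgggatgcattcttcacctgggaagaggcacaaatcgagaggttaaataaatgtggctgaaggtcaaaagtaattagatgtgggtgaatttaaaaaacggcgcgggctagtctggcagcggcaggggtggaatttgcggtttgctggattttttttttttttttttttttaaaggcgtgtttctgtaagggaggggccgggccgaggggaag
Ago1, chr4:126468632-126468881, minus strand: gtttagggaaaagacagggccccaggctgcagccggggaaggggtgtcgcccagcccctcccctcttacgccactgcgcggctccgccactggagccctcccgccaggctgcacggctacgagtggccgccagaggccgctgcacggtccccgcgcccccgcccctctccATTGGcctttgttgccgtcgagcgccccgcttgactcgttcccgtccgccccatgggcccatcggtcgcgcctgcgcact
The Tnrc6b sequence holds 4 CCAAT boxes, Tnrc6a none and Ago1 1. Of 32851 mouse promoters of this length in the table, 33.8% hold at least 1 and 0.84% at least 4. The cut-off of 4 is the Tnrc6b count itself, the highest of the member starts, and only CCAAT was given such a cut-off. The other annotated Tnrc6b start, the Ago3 and Ago4 starts and the Tnrc6c start hold none, and both Ago1 starts share the 1 box. GC boxes (GGGCGG, both strands, overlaps counted) number 5 at Ago4, 4 at Ago3, 2 at each Ago1 start and 1 at the first Tnrc6b start, and 32.7% of all promoters hold 1 or more. An E-box (CACGTG) stands at the second Tnrc6b start only, against 6.02% of all promoters, while TATAAA (12.4% of all) and the STAT motif TTCNNNGAA (7.02% of all) matched none of these 8 windows. The motif matches are descriptions of these windows, and 6 of the 7 genes had an entry in the table, all but Ago2.

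Tnrc6c, the remaining GW182 gene, gave small positive differences that did not pass. Probe set 1424645_at read 2617, 2890 and 3080 in KO A, B and C, against 2436, 2034 and 2625 in Het A, B and C, where KO A lay just under Het C (1.21-fold, interval 0.98 to 1.51; limma, adjusted p = 0.307). Probe set 1460363_at, of the same source sequence, read 1207, 1374 and 1524 in KO and 1058, 928 and 1175 in Het without overlap (1.3-fold, interval 1.03 to 1.63; limma, adjusted p = 0.214). The last Tnrc6c probe set, 1440997_at, read 4.73 to 4.98 in KO and 4.52 to 5.02 in Het and was not tested.

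Counted over the 24 tested member probe sets, 18 differences were positive and 6 negative. Positive differences made up 42.8% of all probe sets tested. On 13 of the 24 every KO array lay above every Het array, and on 0 below. Over all probe sets 26.2% separated the groups, with 11.3% above and 14.9% below. An unadjusted p under 0.05 was reached by 12 of the 24 (19.1% of all), all 12 of them positive (9.24% of all). The median log2 difference was 0.39 over the 24 member probe sets and -0.03 over all probe sets. Several probe sets share a gene or a source sequence, with 9 of the 24 reading Tnrc6a, so these are not 24 separate observations. The members were also chosen with earlier results of these data known, so the counts and medians given here are descriptions only. By the brightest probe set of each gene, 0 of the 7 passed (limma), where 2.33% of 13280 genes did. At an unadjusted p under 0.05 there were 3 of the 7, all higher in KO, against 22.3% of all genes, or 10.7% counting higher ones alone. Of the 7 differences 6 were positive, against 43.4% of all genes, and their median was 0.38 against -0.03.

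**Figure D3:**
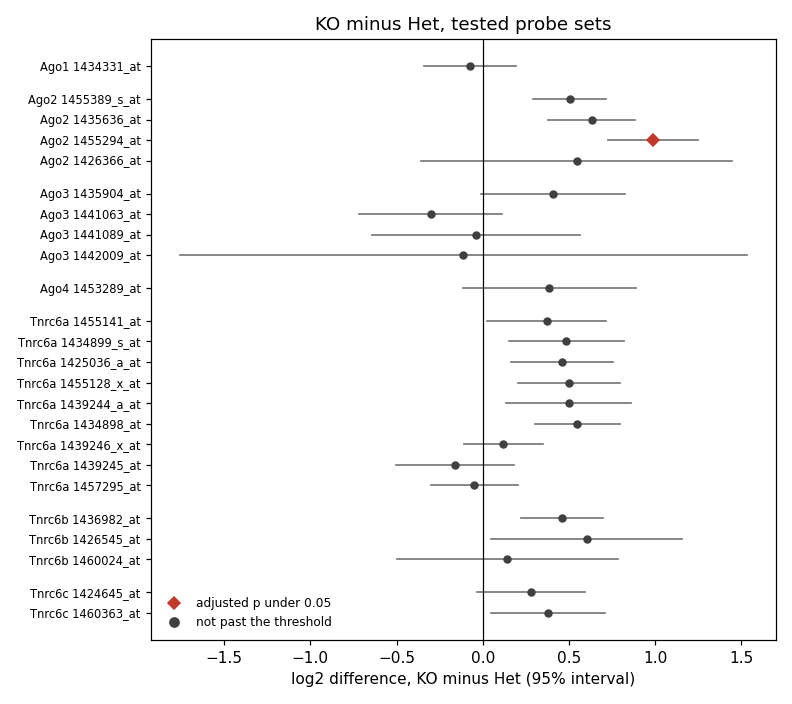
Log2 difference, KO minus Het, of the 24 tested probe sets, with 95% intervals from limma. Ago2 1455294_at, the red diamond at 0.99, is the 1 value past an adjusted p of 0.05, and the brightest Ago2, Tnrc6a and Tnrc6b probe sets lie between 0.37 and 0.50.

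The 7 genes were set beside other steps of the silencing pathway, 67 genes in 5 lists of which 62 were measured. Members and lists were chosen with earlier results of these data known, so the comparison is a description. By the brightest probe set 1 of the 62 rose and 1 fell, that is 3.23% in all. Over all genes 1.37% were higher and 0.956% lower, and the median log2 difference of the 62 was -0.0022. Among 12 microRNA biogenesis genes, Ncbp2, a subunit of the nuclear cap-binding complex, fell to 2905, 2610 and 2870 in KO, against 4741, 4298 and 5425 in Het (0.58-fold; limma, adjusted p = 0.0424). The other 11 did not pass. Dicer1 read 1029, 1053 and 1187 in KO and 1203, 1077 and 1059 in Het on its brighter probe set (adjusted p = 0.891). Its other probe set gave a log2 of -0.52 (adjusted p = 0.145). The probes' positions in the gene are unknown here, and so neither value checks the genotype labels.

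Genes that load and partner Argonaute were mixed. Of 9 measured (of 12 listed), 0 passed by the brightest probe set (limma; by unadjusted p under 0.05, 1 higher and 2 lower). Mov10, an RNA helicase found with Argonaute that is also induced by interferon, read 712, 948 and 755 in KO, against 347, 218 and 412 in Het, without overlap (2.54-fold; limma, adjusted p = 0.0707). Dnaja2, an HSP70 co-chaperone, passed on a dim probe set, 1417182_at, at 452 ± 37.3 in KO and 226 ± 20.1 in Het (SD, n = 3 each; limma, adjusted p = 0.0253). Its brightest probe set gave a log2 of 0.02 (limma, adjusted p = 0.903). The 2 genes lower at an unadjusted p under 0.05 were P4ha1 (0.66-fold, limma, adjusted p = 0.144) and Ipo8 (0.83-fold, limma, adjusted p = 0.182), both without overlap.

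Effectors that act after GW182 showed 0 genes past the test. For deadenylation, 18 of 19 genes were measured and 0 passed (limma; by unadjusted p under 0.05, 2 higher and 1 lower), with a median log2 of 0.03. The 2 with the smallest p were Cnot11 (log2 0.29, adjusted p = 0.143) and Cnot2 (log2 -0.27, adjusted p = 0.191), both parts of CCR4-NOT. For decapping and decay, 15 of 15 were measured and 0 passed (limma; by unadjusted p under 0.05, 1 higher and 0 lower), with a median of -0.04. Dcp2, the decapping enzyme, gave a log2 of 0.34 (adjusted p = 0.151) and Eif4e2, a cap-binding repressor of translation, 0.37 (adjusted p = 0.270). When probe sets were averaged per gene, Dcp2 passed (log2 0.78; limma, adjusted p = 0.0368), through a dim probe set that read 94.5, 113 and 117 in KO and 57.6, 51.6 and 33.0 in Het.

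Of 8 measured genes of other RNA-binding proteins tied to silencing (9 listed), Fmr1 rose and 7 did not pass. By unadjusted p under 0.05, 1 was higher and 2 lower (limma). The 2 lower were Tsn (0.84-fold, limma, adjusted p = 0.237) and Tsnax (0.85-fold, limma, adjusted p = 0.253), both without overlap. Fmr1 encodes the fragile X protein, a translational regulator found with Argonaute. It read 4351, 4320 and 4782 in KO, against 2927, 3031 and 2914 in Het (1.51-fold; limma, adjusted p = 0.0360), without overlap, while its dimmer probe sets gave log2 -0.01 and 0.08. The Ncbp2 and Fmr1 calls, like that of Ago2, were lost when any single array was left out. Both were also lost when the probe sets of each gene were averaged (limma, adjusted p = 0.0511 for Ncbp2 and 0.394 for Fmr1).

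**Figure D4:**
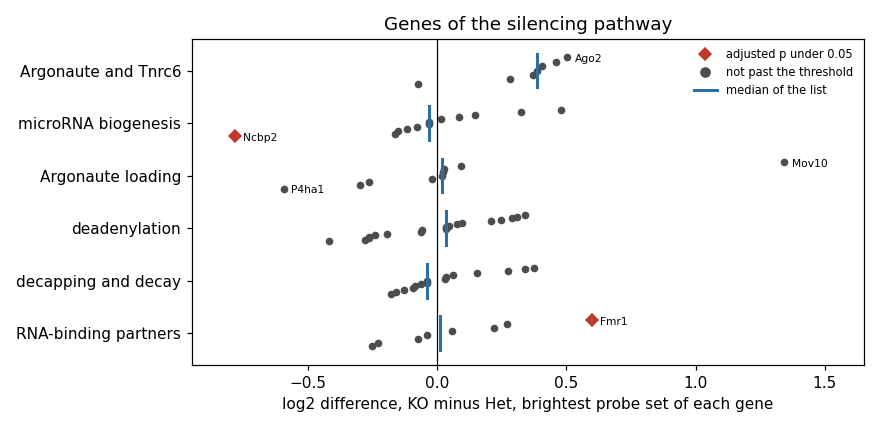
Log2 difference, KO minus Het, of the brightest probe set of each measured gene, in 6 lists from top to bottom, with blue bars at list medians. The Argonaute and Tnrc6 genes have a median of 0.38, the other lists lie between -0.04 and 0.03, and Ncbp2 and Fmr1 are the 2 genes past the threshold.

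The genes most like Ago2 over the 6 arrays were named by Pearson correlation with its brightest probe set, among 13273 other genes. They were Sucla2, a subunit of mitochondrial succinyl-CoA synthetase, Dop1b, Tmem50b, Ppp2r2d, a regulatory subunit of protein phosphatase 2A, and Slc19a2, a thiamine transporter (r = 0.997 to 0.999). The 5 with the lowest r were Mterf3, a mitochondrial transcription regulator, Rps7 and Mrpl24, both ribosomal proteins, Supt7l and Zfp623 (r = -0.996 to -0.990). With 6 arrays in 2 groups any gene that separates them evenly has a high r, and 1.98% of the genes had r above 0.95. Among the members' brightest probe sets, Ago3 and Tnrc6a had the highest correlation with each other (r = 0.97), both with Het A nearest to the KO arrays, while Ago1 correlated at -0.12 with Ago2 and -0.58 with Tnrc6b.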

How the data were processed

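The authors deposited probe set intensities normalized with GCRMA per the labels (software version not given in the sources used here), on a linear scale as judged from their range of 1.23 to 170023. GCRMA subtracts a background modelled from probe sequence. Dim probe sets varied in spread: over the 6 arrays Tnrc6c 1440997_at read 4.52 to 5.02 and Ago3 1442009_at 9.89 to 41.3. Total RNA was amplified, per the labels' protocols, with a MessageAmp II kit. After taking log2 and dropping 64 control probe sets and 1 incomplete one, 29507 had log2 above 4 on at least 3 arrays. These were fitted with genotype alone in limma 3.58.1 under R 4.3.3 (lmFit, eBayes), and two-sided p-values were adjusted by Benjamini-Hochberg over all of them. A gene with several probe sets is named by its brightest where 1 value is needed. Of 45101 probe sets 34958 had 1 gene symbol, 932 several and 9211 none. All member probe sets are named, with every list gene past the threshold by any probe set or else the 2 with the smallest p, and the 5 genes most and least like Ago2. Dicer1, Foxp3, Mov10, P4ha1, Ipo8, Tsn, Tsnax and the genes under other observations were named besides. The members and lists were chosen with earlier results of these data known. Alternatives tried were array weights, a pseudocount of 16, a robust eBayes with intensity trend, no filter or a stricter one, centring on medians, quantile normalization, the array letter as block, leaving out each array or both B arrays and, added after the data were seen, gene means. Steps were tested on simulated data. Median intensities were 58.1 to 61.5 per array.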

Additional observations from a re-analysis of the deposited data

How the results depend on the processing

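Over all probe sets the 525 calls became 0 with a replicate block on the array letter, 957 with array weights and 0 with both B arrays left out, and 0 to 176 when 1 array was left out. Of the members, the 1 call became 0 with the replicate block, 2 under the stricter filter (log2 above 6), 3 with the intensity trend, 4 with array weights, 3 with the pseudocount and 0 without both B arrays, and it was 0 in each of the 6 fits that left out 1 array (range 0 to 0). The 2 silencing list genes called became 0 with the replicate block, 0 without both B arrays, and 0 in each fit that left out 1 array (range 0 to 0). By gene means 1 list gene was called, Dcp2, while Ncbp2 (adjusted p = 0.0511) and Fmr1 (0.394) were not (limma). Positive member differences numbered 17 to 20 when 1 array was left out. The block gave Ago2 1455294_at an adjusted p of 0.0956 (limma). The labels do not say whether a letter marks a shared batch. Same-letter deviations correlated at 0.28 (A), -0.17 (B) and 0.01 (C), not all above 0.1, so the fit without the block was kept. In the B cell, CD8, NK, myeloid and proliferation lists, however, the B array was the highest of both groups. Ago2 1455294_at kept its call without the filter, under the stricter filter, with quantile normalization, median centring, the trend, array weights and the pseudocount (log2 0.95 to 1.01). No scaling moved the median of all probe sets by over 0.1.

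Signs turned for values near 0 that were never called. Ago3 1442009_at gave 0.19 with array weights, 0.79 without both B arrays and -0.69 to 0.34 when 1 array was left out. Ago3 1441089_at gave 0.056 without both B arrays and -0.28 to 0.15 when 1 array was left out. Tnrc6a 1457295_at ranged from -0.12 to 0.0036 and Tnrc6b 1460024_at from -0.071 to 0.34 in those fits. Of the 358 values of single probe sets over the alternatives, 13 turned sign in this way, 8 lost the call, all for Ago2 1455294_at, and 8 gained one. Of the 7 gene means, Ago3 turned sign against its brightest probe set (-0.012) and Ago2 gained a call. The cause was not tested, beyond the fewer arrays in the fits that leave arrays out. Dim readings were limited by the filter: 3 of 27 member probe sets were under it and were not tested.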

Other observations

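Piwil1, Piwil2 and Piwil4, the Piwi relatives of the Argonautes that work in the germ line, were read by 4 probe sets, all under the filter. Piwil1 read 10.8 to 11.2 in KO and 9.80 to 11.3 in Het, and the Piwil4 probe set 1439716_at 9.51 to 9.62 in KO and 9.56 to 9.99 in Het. Piwil2 read 13, 20.5 and 11.6 in KO A, B and C, against 13.5, 12.5 and 12.0 in Het A, B and C.

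Low KO B and high Het B readings, as for Ago2 1426366_at, also stood on single probe sets of pathway genes that were picked after their values were seen. The brightest probe set of Btg2, an antiproliferative gene whose protein binds CCR4-NOT, read 9200, 1119 and 8569 in KO A, B and C, against 5541, 8771 and 3142 in Het A, B and C. Cnot6l 1425480_at, of a deadenylase of the same complex, read 3051, 797 and 2881 in KO and 1919, 3668 and 1373 in Het. Other probe sets of both genes separated the groups instead: Btg2 1448272_at read 3376, 3213 and 3714 in KO and 2605, 2724 and 2571 in Het, and Cnot6l 1425481_at 3300, 2928 and 3613 in KO and 2771, 2627 and 2367 in Het. The correlation with 1426366_at over the 6 arrays does not tell these apart: it was 0.68 and 0.70 for the 2 Btg2 probe sets and 0.74 and 0.78 for the 2 Cnot6l ones, in the order given. Control ratios from 3' to 5' are given with the Ago2 values, with 1.59 for Gapdh in KO B and 1.49 in Het C. The part of RNA integrity in these readings was not tested.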
